A study of Mus musculus with 4 samples.

Results

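The genes of glucose uptake, glycolysis and lactate handling were followed step by step in the frontonasal prominence of wild-type and Smchd1 mutant mouse embryos. Of 31 listed genes, 30 had a row among the 33708 rows of the autosomal expression table, found by gene symbol. The remaining listed gene, Pfkfb1, is X-linked and is not analysed here, nor is the X-linked Pgk1, which encodes the main phosphoglycerate kinase of most tissues. The members were chosen for their place in the pathway, with earlier results of these data known. The data came from RNA sequencing of 4 libraries, each from the dissected frontonasal prominence, the tissue at the front of the embryonic face from which the nose and forehead form. The WT group held 2 Smchd1+/+ embryos, 1 female and 1 male, and the MD43 group held 2 Smchd1MommeD43/MommeD43 embryos, both male. All 4 embryos were of the FVB/NJ strain and were collected at E10.5 with 29 somites, and 100 ng of total RNA went into each stranded, polyadenylated-RNA library. MommeD43 is a missense allele of Smchd1, a chromatin protein that helps to keep chosen genes silent, and it was first recovered in a chemical mutagenesis screen, so every mutant carries the same allele and its effect in other strains is not measured here.

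Glycolysis splits glucose into pyruvate in the cytosol. Glucose enters through transporters of the SLC2A family, is trapped by hexokinase, is committed by phosphofructokinase, is split into trioses by aldolase, and ends as pyruvate through enolase and pyruvate kinase. Lactate dehydrogenase then turns pyruvate into lactate, which leaves the cell with a proton through monocarboxylate transporters of the SLC16A family. Midgestation mouse embryos live at low oxygen and make much lactate. Several of these genes, among them Slc2a1, Hk2, Ldha and Slc16a3, are textbook targets of the hypoxia-inducible factors, and most steps can be served by more than 1 isozyme.

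The deposited values are log2 RPKM, the log2 of read counts scaled to exon length and to library size, and hold 1 merged value per genotype. No spread between embryos could therefore be computed, no test was possible, and each difference has no replicate check. The 2 WT embryos also differed from the MD43 pair in sex composition, and sex and genotype cannot be told apart in a merged value. The reads behind each value were recovered as the geometric mean over the 2 libraries of a genotype, at an implied depth of 16055882 reads for WT and 22328791 for MD43. Each log2 difference (MD43 minus WT) is printed with the smallest error that read counting allows (SE), which leaves out the variation between embryos. A gene was taken as expressed with at least 10 such reads in at least 1 genotype, and a difference of at least 1.5-fold was taken as the fold to count. The labelled tissue was checked against 11 markers of facial mesenchyme, all of which were expressed. Their log2 RPKM in WT and MD43 was 5.28 and 5.11 for Msx1 and 5.11 and 4.72 for Twist1. In bulk tissue, fewer cells of a type and less RNA per cell cannot be told apart.

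Most of the pathway was at a lower level in the MD43 tissue. Of the 30 members found, 26 were expressed, and 20 of these had a lower value in MD43 while 6 had a higher one. The median difference of the 26 was -0.35 on the log2 scale, against 0.01 over all expressed genes, of which 48.8% had a lower value in MD43. Without 6 members whose transcripts share sequence with near-identical copies elsewhere, the median was -0.53. At least 1.5-fold lower were 7 members (Slc2a1, Pfkp, Aldoa, Aldoc, Tpi1, Eno2 and Slc16a3), or 26.9% of the 26, beside 6.43% of 15359 expressed genes. Only 1 member, Pklr, was at least 1.5-fold higher, beside 4.23% of those genes. Another 4 members, Slc2a3, Gpi1, Pfkl and Ldha, were lower by at least 0.5 on the log2 scale but by less than 1.5-fold. At a smaller fold (a log2 difference of 0.32), 14 members were lower, beside 13.9% of expressed genes, and 2 were higher, beside 10.3%. At 2-fold, 2 members, Pfkp and Eno2, were lower, beside 2.47%, and 0 were higher, beside 1.63%. Since earlier results were known when the members were chosen, these shares are description and not a test. Summed over the 30 members, the RPKM was 3082 in WT and 2302 in MD43, which is 25.3% lower.

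**Figure D1:**
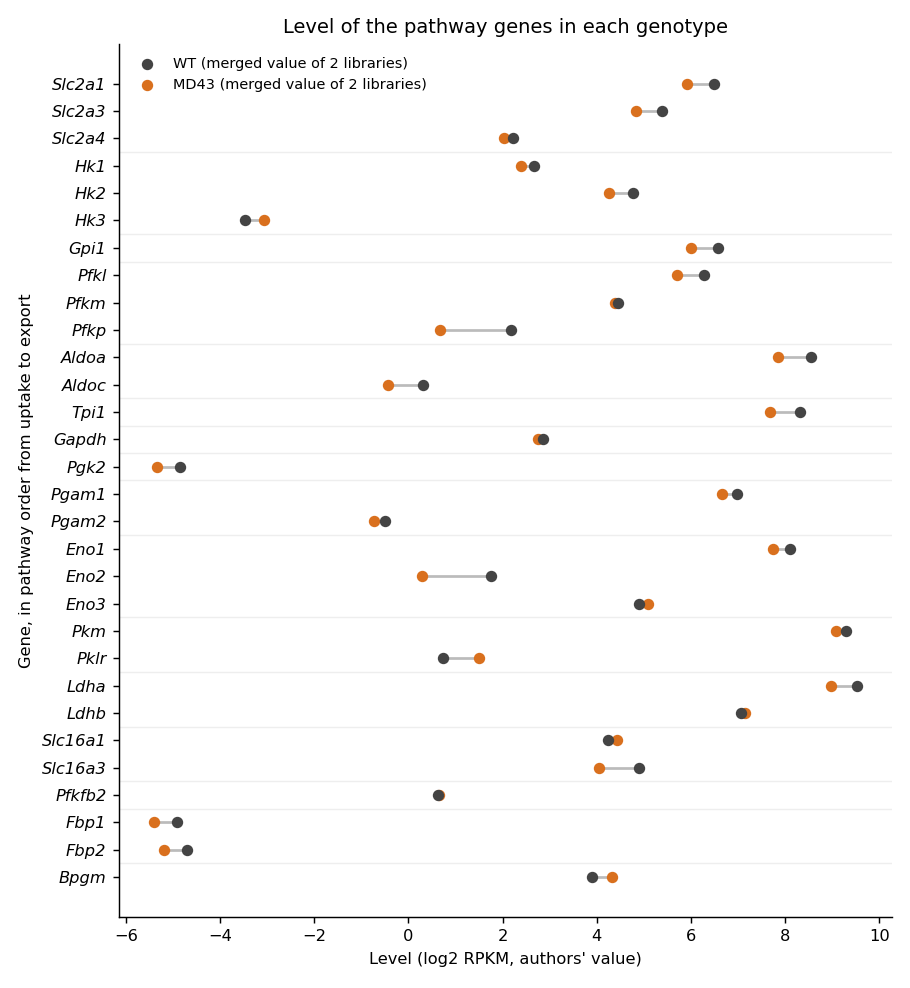
Level of each member in WT and MD43 on the log2 RPKM scale, in pathway order, with 1 point per genotype that merges 2 libraries and with Pgk2, Fbp1 and Fbp2 at the values the table gives to genes without a read. Ldha, Pkm, Aldoa and Tpi1 were the most abundant members in WT, and together they made up 67.1% of the members' summed RPKM in WT and 64.5% in MD43.

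Among genes with many reads the members stood further from the rest. In 23 members that reached 100 reads in each genotype, the median difference was -0.36, and 18 had a lower value in MD43, against 47.2% of the 10746 genes that did so. Of the 23, 6 were at least 1.5-fold lower, beside 1.78% of those genes, and 0 were at least 1.5-fold higher, beside 0.577%. The central 90% of these genes lay between -0.38 and 0.30 on the log2 scale. Below that range lay 11 members, and above it lay 1, Bpgm.

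**Figure D2:**
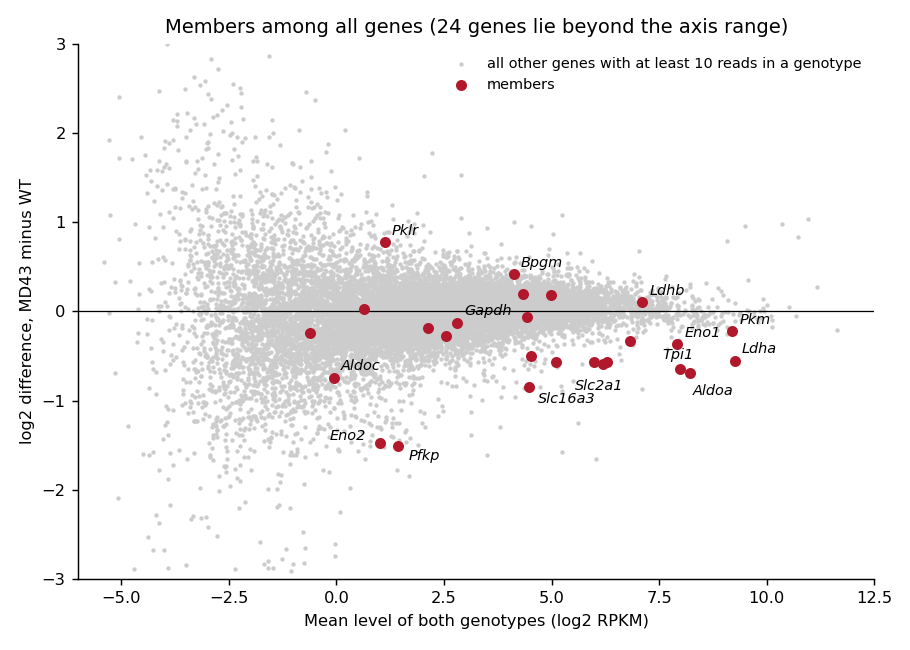
The log2 difference (MD43 minus WT) of each gene with 10 or more reads in either genotype against its mean log2 RPKM, with grey points for other genes (24 lie outside the axis range) and red points for the 26 expressed members, some of them named. The members lie mostly below the zero line, from -1.51 for Pfkp to 0.77 for Pklr, and the grey points narrow with rising level.

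The difference was not the same along the pathway. The 3 uptake genes had a median difference of -0.56. The 8 expressed genes of the hexose phase, from hexokinase to aldolase, had a median of -0.57. All 11 were lower in MD43, as were 48.8% of expressed genes. In the triose phase, from Tpi1 to pyruvate kinase, the median was -0.24 and 7 of 9 expressed genes were lower. The lactate genes split evenly, with 2 of 4 lower and a median of -0.23. The 2 expressed genes of side and reverse reactions, Pfkfb2 and Bpgm, had higher values in MD43, with a median of 0.22. Whether these phases differ from each other was not tested.

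**Figure D3:**
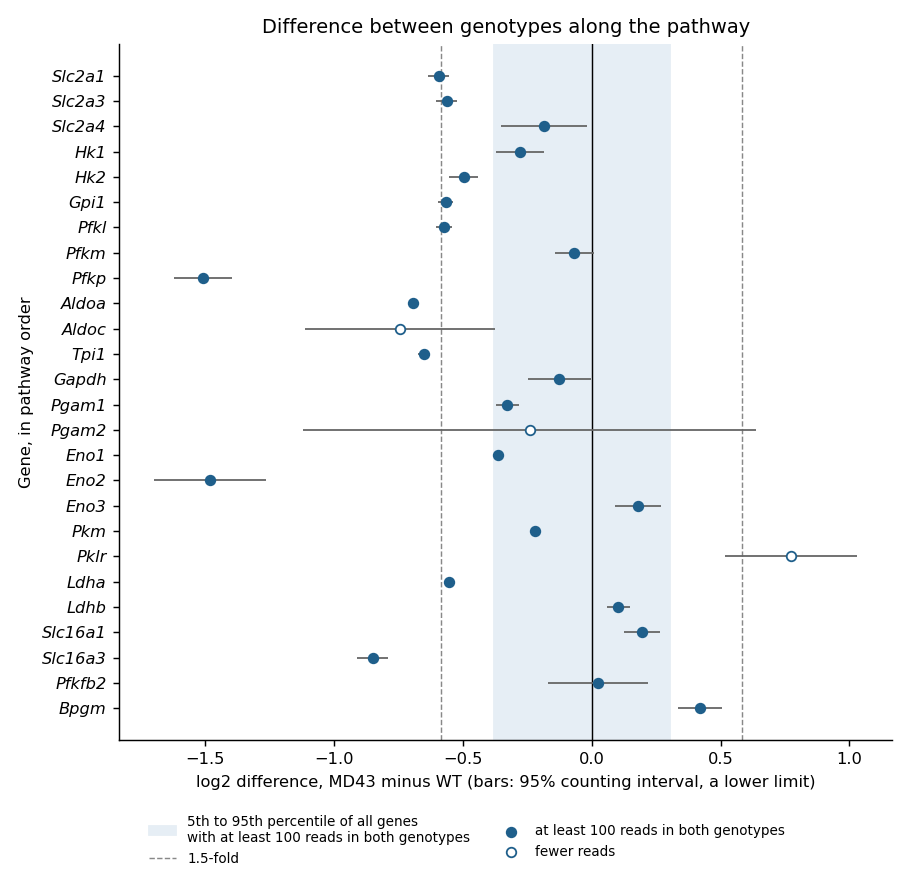
The log2 difference (MD43 minus WT) of each expressed member in pathway order, with bars for the 95% counting interval, which leaves out variation between embryos. Every expressed uptake and hexose-phase gene lies below 0, while Eno3, Pklr, Ldhb, Slc16a1, Pfkfb2 and Bpgm lie above it.

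At the entry to the pathway, both abundant glucose transporters were lower in MD43. Slc2a1 (ENSMUSG00000028645.11, GRCm38 chr4:119108711-119137983), which encodes GLUT1, the basal glucose transporter of embryonic cells, was at 90.5 RPKM in WT and 60.0 in MD43, a difference of -0.59 ± 0.02 (SE) or 1.51-fold, just past the fold counted. Slc2a3, which encodes the high-affinity transporter GLUT3, was at 42.0 RPKM in WT and 28.4 in MD43, or -0.56 ± 0.02 and 1.48-fold, just short of it. The proportion of the pair was alike in both genotypes: Slc2a1 made up 66.0% of the RPKM of the 3 transporters in WT and 64.8% in MD43. Slc2a4, which encodes the insulin-responsive transporter GLUT4, was low in both, at 2.22 and 2.04 log2 RPKM, with a difference of -0.18 ± 0.09.

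Hexokinase traps glucose as glucose-6-phosphate, and its inducible isozyme Hk2 was the main one here. Hk2 was at 27.2 RPKM in WT and 19.3 in MD43, which is 1.41-fold lower (-0.50 ± 0.03). The housekeeping isozyme Hk1 was nearer to its WT level, at 2.67 log2 RPKM in WT and 2.40 in MD43 (-0.28 ± 0.05). Hk2 gave 80.8% of hexokinase RPKM in WT and 78.2% in MD43. Hk3, known mainly from blood cells, was not taken as expressed, at 5.29 reads in WT and 9.80 in MD43. Gpi1, which encodes the isomerase that makes fructose-6-phosphate, has 1 gene serving its step and was at 95.01 RPKM in WT and 64.2 in MD43 (-0.57 ± 0.01, 1.48-fold lower). A long noncoding gene on its opposite strand, Gm26762, held 1359 reads in WT and 1431 in MD43, a log2 difference of -0.40. The use of strand in counting is not given in the sources used here.

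The isozymes of phosphofructokinase, the committed step, were all lower in MD43 but by unlike amounts. The platelet-type isozyme Pfkp (ENSMUSG00000021196.14, chr13:6579768-6648777) was at 4.55 RPKM in WT and 1.60 in MD43, from 978 and 478 reads. It was 2.85-fold lower (-1.51 ± 0.06), and only 5 of the 10746 genes that reached 100 reads in each genotype were lower still. The liver-type isozyme Pfkl, the most abundant of the 3, was 1.49-fold lower, at 77.5 RPKM in WT and 52.1 in MD43 (-0.57 ± 0.02). The muscle-type isozyme Pfkm was almost at its WT level, with 21.99 RPKM in WT and 20.99 in MD43 (-0.07 ± 0.04). Its share of phosphofructokinase RPKM was thus 21.1% in WT and 28.1% in MD43, while that of Pfkl was 74.5% and 69.8%, and that of Pfkp 4.37% and 2.14%. Pfkp overlaps Pitrm1 on the opposite strand, whose difference had the other sign, at 0.15, from 2167 reads in WT and 3354 in MD43.

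Aldolase splits fructose-1,6-bisphosphate into trioses, and nearly all of it was Aldoa, with 99.7% of aldolase RPKM in both genotypes. Aldoa (ENSMUSG00000030695.16, chr7:126795234-126800751) was at 376 RPKM in WT and 232 in MD43, a 1.62-fold lower level (-0.69 ± 0.01). Among members above 100 RPKM in WT it had the widest difference, and 116 of the 10746 genes were lower still. A second, shorter row with the same symbol (ENSMUSG00000114515.2) held 57.7 reads in WT and 55.5 in MD43, with a difference of -0.53. Aldoc, the brain-type aldolase, was at 1.23 RPKM in WT and 0.74 in MD43, or 1.67-fold lower, with a counting error of 0.19 around its log2 difference of -0.74.

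Tpi1, the triosephosphate isomerase that lets both trioses continue, was close to Aldoa in its difference. Its level was 320 RPKM in WT and 204 in MD43, 1.57-fold lower (-0.65 ± 0.01). Gapdh, the next enzyme and a widely used reference gene, cannot be read in the same way. It was listed at 7.30 RPKM in WT and 6.69 in MD43 (-0.13 ± 0.06). Its transcripts share 55.5% of their 75-base windows, letter for letter, with 121 other annotated genes, so its level and its difference are uncertain. The 3 of those genes that were expressed, Gm3839, Gm47854 and Peli2, had differences of -0.09, -0.38 and -0.11. Pgk2, the testis form of phosphoglycerate kinase, had no read in either genotype, which allows up to 3 reads in a library.

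Phosphoglycerate mutase had a smaller difference than Tpi1. Pgam1, the main phosphoglycerate mutase with 99.4% of the step's RPKM in both genotypes, was at 126 RPKM in WT and 101 in MD43 (-0.33 ± 0.02). Its muscle-type partner Pgam2 had 9.54 reads in WT and 11.2 in MD43, too few to place its difference of -0.24 ± 0.45. Of the windows of Pgam1, 40.6% occur in other annotated genes, so its level is uncertain.

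The 3 enolases did not share a direction. Eno1, the ubiquitous form, was at 274 RPKM in WT and 213 in MD43 (-0.36 ± 0.01), but 44.3% of its windows occur elsewhere, mostly in the copy Eno1b, which had a difference of -0.34. Eno2, the enolase best known from neurons (ENSMUSG00000004267.16, chr6:124760053-124769673), was at 3.39 RPKM in WT and 1.21 in MD43, from 256 and 127 reads. It was 2.79-fold lower (-1.48 ± 0.11), and 7 of the 10746 genes were lower. Eno3, the muscle-type enolase, was higher, at 30.0 RPKM in WT and 33.9 in MD43 (0.18 ± 0.05). The share of Eno3 in the enolase RPKM was 9.75% in WT and 13.7% in MD43, while that of Eno2 was 1.10% and 0.489%.

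Markers of neurons and muscle were set beside these tissue-type isozymes. Among all expressed genes, 48.8% were lower in MD43 and 6.43% were lower by at least 1.5-fold. Of 6 neuronal markers found, all were expressed and 5 were lower in MD43, with a median of -0.21. At least 1.5-fold lower was 1 of these markers, Snap25, at -0.99 ± 0.25. Their summed RPKM was 101 in WT and 98.6 in MD43, with differences of 0.02 for Tubb3, -0.32 for Stmn2 and -0.05 for Elavl3. The 6 neural progenitor markers had a median of -0.23, and their summed RPKM was 241 in WT and 201 in MD43, with differences of -0.13 for Sox2, -0.23 for Hes5 and -0.89 for Fabp7. The part of neural cells in the Eno2 and Aldoc values was not tested. The 8 markers of skeletal and cardiac muscle were all under 10 reads in both genotypes and summed to 0.403 RPKM in WT and 0.425 in MD43, so the level of Eno3 and Pfkm was measured where defining muscle genes were near 0.

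Pyruvate kinase, which makes pyruvate and ATP, was almost wholly Pkm, the second most abundant member. Pkm was at 632 RPKM in WT and 543 in MD43, a small difference of -0.22 ± 0.01. Of its windows, 9.23% occur in pseudogenes elsewhere, and the table does not separate its M1 and M2 splice forms. Gm49759, an overlapping gene on the same strand, shares 4.78% of the Pkm windows. It held 4655 reads in WT and 5482 in MD43, a log2 difference of -0.24. Pklr, the liver and red-cell pyruvate kinase (ENSMUSG00000041237.12, chr3:89136142-89146784), was the member with the widest difference in the other direction. It was at 1.66 RPKM in WT and 2.84 in MD43, from 86.2 and 205 reads, and so 1.71-fold higher (0.77 ± 0.13). Pklr overlaps Hcn3 on the opposite strand, which had a difference of -0.04 on 83.2 reads in WT and 112 in MD43.

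Bpgm, which makes the 2,3-bisphosphoglycerate that tunes haemoglobin in red cells, was also higher. It was at 14.98 RPKM in WT and 20.1 in MD43, or 1.34-fold (0.42 ± 0.04), and 194 of the 10746 genes were higher still. Red blood cell markers were higher as well. All 9 such markers found were higher in MD43, with a median of 0.88 and differences from 0.56 to 2.57. At least 1.5-fold higher were 8 of them, beside 4.23% of expressed genes. The embryonic globins were the most abundant, with differences of 1.04 for Hbb-bh1, 0.84 for Hbb-y and 0.79 for Hba-x, and the summed RPKM of the list was 3168 in WT and 6014 in MD43. The part of red cells in the Pklr and Bpgm values was not tested.

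The other regulators and reverse enzymes were quiet or silent. Pfkfb2, which sets the level of the phosphofructokinase activator fructose-2,6-bisphosphate, was at 0.63 log2 RPKM in WT and 0.65 in MD43 (0.02 ± 0.10). Gm29427, an overlapping gene on the same strand, shares 22.0% of the Pfkfb2 windows. It held 53.9 reads in WT and 83.2 in MD43, a log2 difference of 0.15. Fbp1 and Fbp2, the fructose-1,6-bisphosphatases that run the committed step backwards in gluconeogenesis, had no read in either genotype, which allows up to 3 reads in a library.

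The lactate genes formed opposed pairs. Ldha (ENSMUSG00000063229.15, chr7:46841475-46855627), the subunit that favours making lactate, was the most abundant member in WT, at 741 RPKM, and was at 505 in MD43, a difference of -0.55 ± 0.01 that falls just short of the fold counted. Ldhb, the subunit that favours its use, was at 133 RPKM in WT and 143 in MD43 (0.10 ± 0.02). Ldha thus gave 84.8% of lactate dehydrogenase RPKM in WT (exact 95% binomial interval 84.4 to 85.1, counting error only) and 77.95% in MD43 (77.6 to 78.3).

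The order of the lactate transporters was not the same in the genotypes. Slc16a3 (ENSMUSG00000025161.16, chr11:120948480-120960868), which encodes MCT4, the low-affinity exporter of strongly glycolytic cells, was at 29.7 RPKM in WT and 16.5 in MD43. It was 1.80-fold lower (-0.85 ± 0.03), with 63 of the 10746 genes lower still. Slc16a1, which encodes the widespread transporter MCT1, was at 18.9 RPKM in WT and 21.7 in MD43 (0.19 ± 0.04). Slc16a3 was the larger of the pair in WT with 61.0% of their RPKM (59.5 to 62.6) and the smaller in MD43 with 43.2% (41.7 to 44.7). Both intervals cover counting error only.

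**Figure D4:**
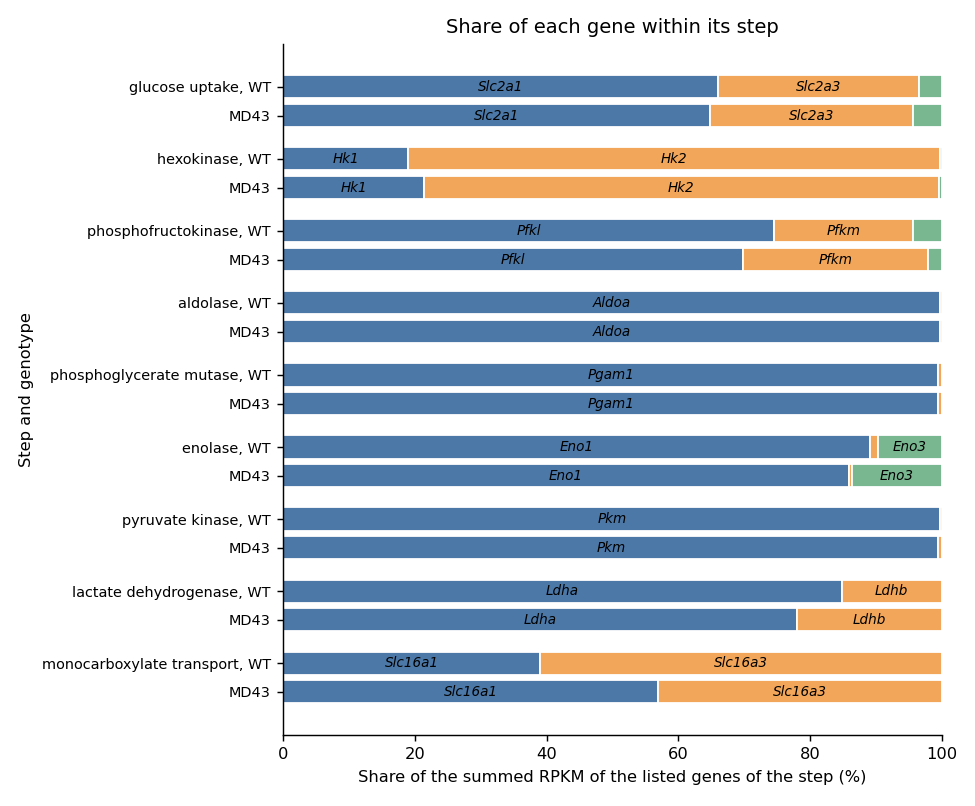
Share of the summed RPKM of each step given by each isozyme, in percent, with a WT and an MD43 bar for each step. The segments of Slc16a1, Ldhb, Pfkm and Eno3 are wider in MD43 than in WT, and segments too small to label belong to Slc2a4, Hk3, Pfkp, Aldoc, Pgam2, Eno2 and Pklr.

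The sequences just before the start sites of 6 members are shown because their genes differ in response: Slc2a1, Hk2, Ldha and Slc16a3 were lower in MD43, while Ldhb and Slc16a1, their partners, were not. Each line holds the 250 bases before a RefSeq start on GRCm38.p6, read 5′ to 3′ on the gene's strand. Capitals mark ACGTG, a form of the core of the hypoxia response element, on either strand (ACGTG or CACGT). A palindrome CACGTG, which holds both, was counted as 1 match. The other form of the core, GCGTG, was neither marked nor counted. The windows are chr4:119108495-119108744 (plus) for Slc2a1, chr6:82774455-82774704 (minus) for Hk2, chr7:46845554-46845803 (plus) for Ldha, chr6:142507958-142508207 (minus) for Ldhb, chr11:120948817-120949066 (plus) for Slc16a3 and chr3:104638414-104638663 (plus) for Slc16a1.
Slc2a1: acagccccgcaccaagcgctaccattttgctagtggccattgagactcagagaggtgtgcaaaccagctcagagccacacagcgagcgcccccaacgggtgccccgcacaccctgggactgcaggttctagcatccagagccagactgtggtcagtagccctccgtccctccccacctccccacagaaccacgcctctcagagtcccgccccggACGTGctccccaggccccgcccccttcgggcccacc
Hk2: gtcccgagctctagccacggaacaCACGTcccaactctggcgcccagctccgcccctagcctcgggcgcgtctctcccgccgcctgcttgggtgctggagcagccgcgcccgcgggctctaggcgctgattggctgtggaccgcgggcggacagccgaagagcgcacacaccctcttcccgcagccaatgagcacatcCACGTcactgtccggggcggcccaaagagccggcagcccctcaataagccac
Ldha: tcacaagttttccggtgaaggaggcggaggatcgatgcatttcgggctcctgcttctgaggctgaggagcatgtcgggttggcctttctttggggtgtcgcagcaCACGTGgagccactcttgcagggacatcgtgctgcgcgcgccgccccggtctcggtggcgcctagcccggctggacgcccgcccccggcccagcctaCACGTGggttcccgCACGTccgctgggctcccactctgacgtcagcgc
Ldhb: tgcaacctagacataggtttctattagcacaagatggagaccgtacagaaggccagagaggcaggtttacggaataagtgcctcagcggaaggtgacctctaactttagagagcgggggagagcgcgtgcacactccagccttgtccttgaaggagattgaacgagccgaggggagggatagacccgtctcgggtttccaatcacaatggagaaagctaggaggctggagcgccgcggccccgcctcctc
Slc16a3: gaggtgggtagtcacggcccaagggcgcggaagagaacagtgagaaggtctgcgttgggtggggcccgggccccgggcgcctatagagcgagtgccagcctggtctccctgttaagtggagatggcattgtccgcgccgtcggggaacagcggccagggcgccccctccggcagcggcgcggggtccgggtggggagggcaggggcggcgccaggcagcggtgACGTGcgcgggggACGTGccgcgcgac
Slc16a1: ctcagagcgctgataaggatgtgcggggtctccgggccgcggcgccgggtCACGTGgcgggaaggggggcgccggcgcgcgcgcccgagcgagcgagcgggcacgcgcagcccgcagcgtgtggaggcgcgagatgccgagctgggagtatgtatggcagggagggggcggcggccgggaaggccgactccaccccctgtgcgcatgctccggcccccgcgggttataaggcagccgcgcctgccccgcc

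The Ldha window, the 1 of its 2 windows that held the motif, had 3 matches, 2 of them the palindrome, those of Hk2 and Slc16a3 held 2 each, and those of Slc2a1 and Slc16a1 held 1. No ACGTG was found in the Ldhb window. The uncounted form GCGTG, read on either strand, occurs in the windows of Ldhb, Slc2a1 and Slc16a1. The motif is short, and 16.6% of all 32851 RefSeq windows of this length held it, with 1.93% holding 2 or more matches and 6.02% the palindrome. Of the members' 42 windows, 15 or 35.7% held it. Among the 24 expressed members with a window, the median log2 difference was -0.41 for the 10 with a match and -0.32 for the 14 without. In these groups 8 of 10 and 10 of 14 were lower in MD43. Pfkp and Eno2, the members with the widest differences, had no match in the bases searched. Sequence outside the windows was not searched, and a link between the motif and the differences was not tested. Members with several windows had more chances of a match, and Slc2a3 and Slc2a4 had no window in the table used.

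Genes that lie next to the pathway were followed in lists, which were also chosen with earlier results known. Over all expressed genes, 48.8% were lower in MD43 and 6.43% were lower by at least 1.5-fold. Hypoxia-inducible factor targets outside the pathway were lower in 14 of 14 cases, 12 by at least 1.5-fold, with a median of -0.84. They included Adm, which encodes the vascular peptide adrenomedullin (-2.60 ± 0.30, from 62.5 reads in WT and 14.3 in MD43), the mitophagy receptor gene Bnip3 (-1.58 ± 0.04) and the mTORC1 inhibitor gene Ddit4 (-1.26 ± 0.04). Next came the carbonic anhydrase gene Car9 (-1.14 ± 0.41, on 16.1 and 10.2 reads), Ankrd37 (-0.98 ± 0.12) and Vegfa, the main blood vessel growth factor (-0.86 ± 0.04). The 2 short of the fold were Egln3 and Mxi1, both at -0.48.

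Of the 16 expressed genes that decide the fate of pyruvate and lactate, 8 were lower and 8 higher, with a median of 0.03. The 1 past the fold was Pdk1, the gene of a kinase that inhibits pyruvate dehydrogenase. It was at 4.45 log2 RPKM in WT and 3.15 in MD43, which is 2.47-fold lower (-1.30 ± 0.03). The 13 expressed genes of other uptake and glycolysis steps had a median of 0.05. Pfkfb3, the inducible partner of Pfkfb2, was at least 1.5-fold lower (-0.83 ± 0.04). The sugar transporter genes Slc2a5 (0.72 ± 0.24) and Slc2a6 (0.64 ± 0.42) were higher, from fewer than 100 reads each.

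Other branches of sugar metabolism had smaller median differences than the members. The 7 genes of the pentose phosphate pathway, which draws off glucose-6-phosphate to make NADPH and ribose, had a median of 0.07 and none past 1.5-fold in either direction. Of 9 expressed glycogen genes, 8 or 88.9% were lower in MD43, beside 48.8% of expressed genes. None was lower by 1.5-fold, and the median was -0.18. Gluconeogenesis and glycerol shuttle genes had a median of 0.08 over 11 expressed genes, with Slc37a4, the glucose-6-phosphate carrier (-0.80 ± 0.09), and the mitochondrial enzyme gene Pck2 (-0.72 ± 0.06) at least 1.5-fold lower.

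**Figure D5:**
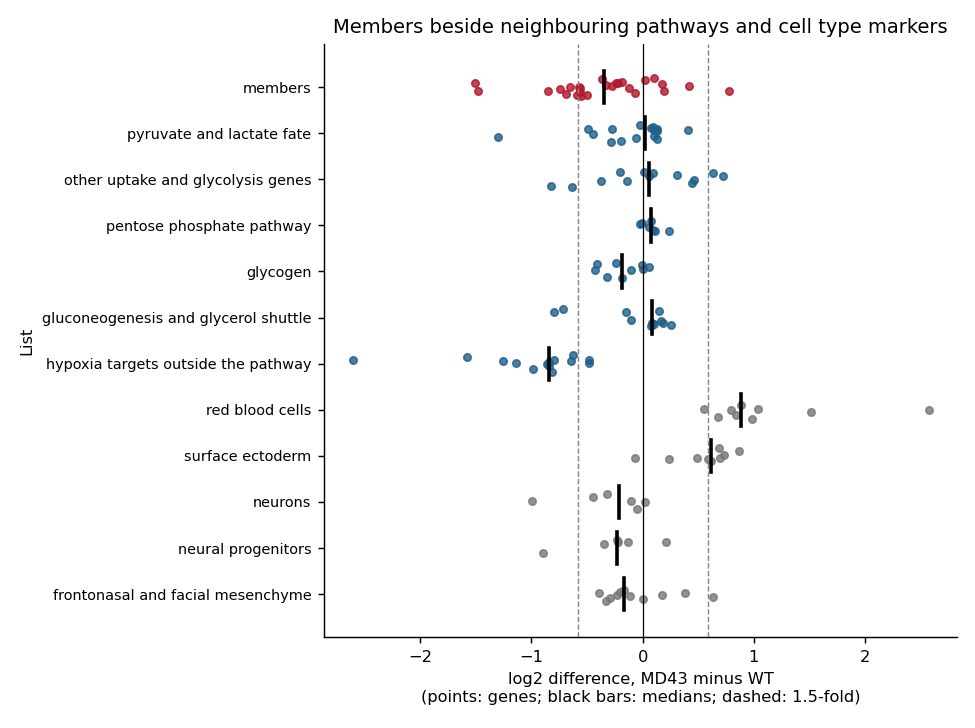
The log2 difference (MD43 minus WT) of each expressed gene in the members, the neighbouring pathways and 5 of the marker lists, with a black bar at each list's median and dashed lines at 1.5-fold. The members have a median of -0.35, hypoxia targets outside the pathway -0.84, and red blood cell markers 0.88.

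Other cell type markers also differed between the merged samples. Of 9 surface ectoderm markers, 8 were higher in MD43, with a median of 0.61. At least 1.5-fold higher were 6 of the 9, beside 4.23% of expressed genes. The summed RPKM of this list was 124 in WT and 192 in MD43. The differences were 0.49 for Krt18, 0.87 for Cldn6 and 0.70 for Krt8. The 11 facial mesenchyme markers had a median of -0.17 and a summed RPKM of 180 in WT and 177 in MD43. Endothelial markers had a median of -0.05 over 5 genes, macrophage markers of -0.25 over 4 expressed genes and liver markers of -0.51 over 3. The part of tissue makeup in the members' differences was not tested.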

How the data were processed

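Polyadenylated RNA from 4 frontonasal prominences was sequenced as stranded 75-base reads. The authors trimmed reads with Trim Galore (version 0.4.4), mapped them with HISAT2 (version 2.0.5) to GRCm38.p6 and quantified genes in SeqMonk, and they deposited log2 RPKM values, 1 merged column per genotype, for 33708 rows on 19 autosomes. Columns of the authors' own comparison (fold change, false discovery rate, average) were not used.

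From the deposited log2 values, exon lengths of GENCODE M21 and the lowest values of each column, the product of the reads of the 2 libraries was recovered, with a library at 0 reads standing at 0.9. Products from 100 to 100000 were whole numbers within 0.05 for 99.8% (MD43) and 99.7% (WT) of genes. The implied depths were 22328791 (MD43) and 16055882 (WT) reads. The smallest SE came from these reads, and intervals are 95% intervals that cover counting error only. The steps were tested on simulated data. Since the values are already merged, differences were described with no pseudocount and no test. A gene was counted where either genotype reached 10 reads.

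The members and lists were chosen with earlier results of these data known. All members are named. From neighbouring lists, genes past 1.5-fold were named, at most 6 by size, and from marker lists at most the 3 most abundant; Snap25 and the Egln3 and Mxi1 pair were named after their values were seen. Some genes of these lists are not reported here by name. The 75-base windows of each member's transcripts were matched exactly to those of other GENCODE genes, and 5% or more counted as a near-identical copy. Promoter windows came from RefSeq on GRCm38.p6. Python 3.11.15, NumPy 2.4.6, pandas 2.3.3, SciPy 1.17.1 and matplotlib 3.10.9 were used.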

Additional observations from a re-analysis of the deposited data

How the results depend on the processing

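The members' median difference of -0.35 became -0.42 with no filter on low values, where genes without a read carry the difference in depth between the groups, and -0.53 without the 6 members that have a near-identical copy (Gpi1, Gapdh, Pgam1, Eno1, Pkm and Ldhb). A pseudocount, centring, a correction for GC content and exon length and a stricter read minimum left it between -0.34 and -0.36. The 7 members at least 1.5-fold lower were 14 at the smaller fold (log2 0.32) and 2 at 2-fold. The 1 member at least 1.5-fold higher, Pklr, became 0 on the log2(RPKM + 1) scale, with 100 reads asked of each genotype, or at 2-fold, and 2 at the smaller fold. Adding the reads of copies found expressed put the share of Eno1 at 90.2% in WT and 87.2% in MD43, in place of 89.1% and 85.8%. Of 104 member values under the alternatives, 8 moved beyond their counting interval and 0 changed sign.

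No paired analysis was possible because each genotype has a single merged column. For the same reason no replicate was left out, and whether 1 embryo carries a difference is unknown. Counting error is small for members with at least 100 reads (SE from 0.0061 to 0.11), and depth limits Hk3, Pgam2 and Aldoc.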

Other observations

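For members with few reads, the product of the reads of a genotype's 2 libraries has only some whole-number factor pairs, and the closest pair gives the smallest possible fold between the libraries before scaling for depth. Which embryo held which number is not known. For Eno2 the closest pair was 196 and 334 reads in WT, so its WT libraries differed by at least 1.70-fold, while the closest pair in MD43 was 123 and 132. For Pklr the closest pairs were 75 and 99 in WT and 200 and 210 in MD43. For Aldoc they were 58 and 72 in WT and 48 and 60 in MD43. For Pfkfb2 they were 169 and 192 in WT and 227 and 286 in MD43.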
